A study of Rattus norvegicus with 6 samples.

Results

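The genes examined were 5 used as markers of pericytes (Rgs5, Kcnj8, Abcc9, Cspg4 and Mcam) and 5 of the Notch pathway (Notch1, Notch3, Jag1, Hes1 and Hey1), measured by RNA-seq of neonatal rat cardiac fibroblasts (NRCFs). They were taken by symbol from the 21857 gene symbols of the count tables, and all 10 were listed there. The NRCFs were primary cells from the hearts of healthy rats within 3 days of birth, described as Sprague-Dawley in the study's design and with the strain label Noway. All cells were transfected with a plasmid. The Vector group (3 libraries, genotype label WT) received the empty plasmid, and the other group (3 libraries, genotype label FTO overexpression) received the plasmid carrying rat FTO, an RNA demethylase that removes N6-methyladenosine. The methods describe a hypoxia chamber for NRCFs, and whether the sequenced cells were kept in it is not given in the sources used here. Nothing says whether the 3 libraries of a group came from separate cultures, so the p-values measure the spread between these libraries, which may be technical.

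Pericytes are the contractile support cells wrapped around capillaries, and in the heart they share a lineage and several surface proteins with fibroblasts and smooth muscle cells. Notch is a receptor pathway between touching cells. A ligand such as Jag1 on one cell binds a receptor on its neighbour, ADAM and γ-secretase proteases then release the intracellular part of the receptor, and that part joins the DNA-binding protein Rbpj to switch on repressors of the Hes and Hey families. Notch3 is best known as the receptor of smooth muscle cells and pericytes in the vessel wall.

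The libraries held 13178952 to 17857999 counts, and 3 counts, taken as the floor of detection, were worth 0.168 to 0.227 CPM, which are counts scaled to a common total per library. Values below are CPM corrected with TMM factors, which balance composition between libraries, and changes are log2 fold changes of the libraries labelled FTO over Vector from the edgeR quasi-likelihood test, each with its standard error (SE) and an adjusted p-value (Benjamini-Hochberg, all genes tested). Fto itself was at 87.4 to 89.6 CPM in Vector and 90.8 to 93.2 CPM in the libraries labelled FTO, a fold change of 1.05 with a 95% confidence interval of 0.976 to 1.12 and an adjusted p-value of 0.239 in edgeR. All 3 libraries labelled FTO lay above the Vector libraries, but by less than the test could call. In these libraries the label was therefore not borne out by the mRNA of the transfected gene. The paper reports checks of the transfection by qRT-PCR and protein, and lower N6-methyladenosine by dot blot, in assays other than this RNA-seq. Each direction below is that of the libraries labelled FTO. Of the 12941 genes tested over the whole table, 65.9% passed an adjusted p-value of 0.05, 33.2% as higher and 32.8% as lower, and 70.3% had no overlap in CPM between the groups. The fibroblast label was checked with 10 fibroblast markers. All 10 were detected, with a summed level of 41480 to 42150 CPM in Vector and 20160 to 21140 CPM in the libraries labelled FTO, 4 of them higher and 6 lower. Col1a1 and Col3a1 (log2 fold changes -1.64 and -1.68), the collagen genes, carried most of that sum. Without them the other 8 summed to 5293 to 5436 CPM in Vector and 8995 to 9358 CPM in the libraries labelled FTO. Dcn, a matrix proteoglycan, carried that rise, at 45.3 to 48.4 CPM in Vector and 5447 to 5861 CPM in the libraries labelled FTO. With Dcn left out too, the rest summed lower in the libraries labelled FTO than in Vector. Lum (3.15), Pdgfra (2.49) and Thy1 (0.60) were also higher, and Fbln2 (-2.00), Vim (-1.34), Ddr2 (-0.50) and Tcf21 (-0.41) were lower.

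Of the 10 genes, 8 passed the filter on low counts and were tested. Kcnj8 and Abcc9 rose, and Cspg4, Mcam, Notch1, Notch3, Jag1 and Hes1 fell. All 8 were free of overlap in CPM between groups, as were 35.5% (higher) and 34.8% (lower) of all genes tested. At a threshold of at least 2-fold with an unadjusted p-value under 0.05, 7 of the 8 passed and Hes1 did not, where 19.6% of all genes tested passed (10.4% higher and 9.27% lower). Changes past 4-fold were found in 4 of them (Kcnj8, Abcc9, Mcam and Notch3), against 7.74% of all genes tested. Rgs5 and Hey1 had too few counts to be tested. The log2 fold changes of the 8 had a median of -1.21, against 0.00 over all genes tested, with the 4 pericyte markers split between both directions and the 4 Notch genes all lower. In RNA from whole cultures, fewer cells of a type and less RNA per cell cannot be told apart.

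**Figure D1:**
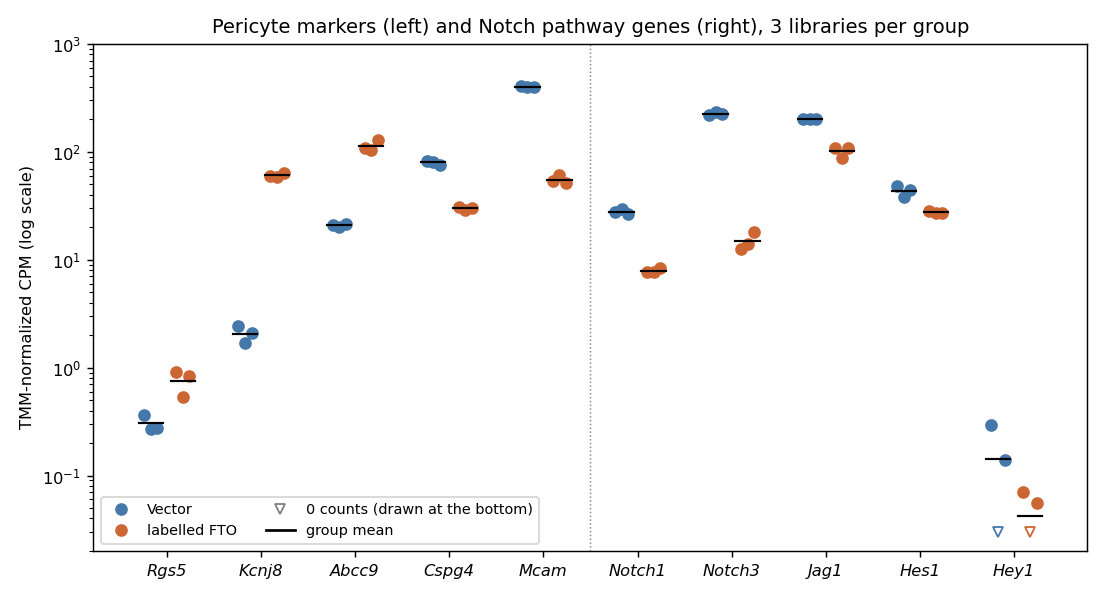
TMM-normalized CPM (log axis) of the 10 genes in each library, with points for the 3 Vector libraries and the 3 libraries labelled FTO, bars for group means and open triangles for 0 counts. Kcnj8 and Abcc9 lie higher and Cspg4, Mcam, Notch1, Notch3, Jag1 and Hes1 lower in every library labelled FTO than in any Vector library, while Rgs5 and Hey1 lie under 1 CPM throughout.

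Among the pericyte markers, both subunits of the vascular ATP-sensitive potassium channel rose. Kcnj8, which encodes the pore-forming subunit, was at 2.41, 1.68 and 2.08 CPM in Vector replicates 1, 2 and 3 and at 59.8, 58.4 and 64.3 CPM in FTO replicates 1, 2 and 3. All 3 Vector libraries were low, with 25 to 33 counts, and the other 3 held 773 to 1152. The change was 29.65-fold (95% confidence interval 25.2 to 34.9), with log2 fold change 4.89 ± 0.110 (SE) and edgeR adjusted p-value 5.23e-15. Of all genes tested, 1.11% had a larger log2 fold change. Abcc9, which encodes the regulatory subunit of the same channel, was at 20.85, 20.3 and 21.6 CPM in Vector and at 109, 103 and 130 CPM in the libraries labelled FTO. FTO replicate 3 was the highest and the groups were far apart. Abcc9 rose 5.46-fold (4.83 to 6.185), with log2 fold change 2.45 ± 0.0836 (SE) and edgeR adjusted p-value 8.05e-13, and 3.49% of all genes tested had a larger one.

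Kcnj8 and Abcc9 are neighbours on rat chromosome 4 in RefSeq's annotation of the GRCr8 assembly, with 0 annotated genes between them and no overlap. Because they rose together, the 250 bases before the start of each are shown, read 5′ to 3′ on the strand of the gene from RefSeq's GRCr8 promoters, at chr4:177246549-177246798 (- strand) for Kcnj8 and chr4:177386349-177386598 (- strand) for Abcc9. Neither holds GTGGGAA, the only form of an Rbpj word that was searched, which is described with the Notch target genes.
Kcnj8: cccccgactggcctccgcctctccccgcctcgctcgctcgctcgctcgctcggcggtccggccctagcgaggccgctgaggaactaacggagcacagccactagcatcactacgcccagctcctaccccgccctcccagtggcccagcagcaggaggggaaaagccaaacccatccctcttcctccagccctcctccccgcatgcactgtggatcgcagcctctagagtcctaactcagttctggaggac
Abcc9: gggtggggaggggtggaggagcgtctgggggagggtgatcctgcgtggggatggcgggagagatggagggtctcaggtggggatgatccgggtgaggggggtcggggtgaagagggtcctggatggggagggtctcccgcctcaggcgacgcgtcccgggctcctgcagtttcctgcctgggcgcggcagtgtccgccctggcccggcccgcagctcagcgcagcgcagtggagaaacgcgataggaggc

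The rise of Kcnj8 exceeded that of Abcc9. Per count of Abcc9 there were 0.116, 0.0825 and 0.0962 counts of Kcnj8 in the Vector libraries and 0.547, 0.565 and 0.497 in the libraries labelled FTO. These ratios are not corrected for gene length, so they show a shift of one gene against the other and not which is more abundant per transcript. The log2 ratio moved from -3.34 ± 0.241 to -0.90 ± 0.0970 (SD, n = 3 each), a difference of 2.44. The exact permutation test, two-sided, gave p = 0.1, which is the smallest that 3 libraries against 3 allow, and 0.125 adjusted over the 5 ratios examined.

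Rgs5, a regulator of G-protein signalling and a widely used pericyte marker, was close to the floor. It had 5, 4 and 4 counts in Vector and 13, 7 and 15 in the libraries labelled FTO, which is 0.366, 0.268 and 0.277 CPM against 0.912, 0.529 and 0.838 CPM. The higher values all belonged to the libraries labelled FTO, at levels that did not pass the filter. Without that filter, edgeR gave a log2 fold change of 1.32 (adjusted p-value 0.0391).

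The other pericyte markers fell. Cspg4, a chondroitin sulfate proteoglycan of the pericyte surface, was at 82.8, 81.4 and 76.2 CPM in Vector and at 30.6, 29.15 and 30.4 CPM in the libraries labelled FTO. It fell to 0.375 of its Vector level (0.344 to 0.410), with log2 fold change -1.41 ± 0.0596 (SE) and edgeR adjusted p-value 1.12e-11. Mcam, an adhesion molecule of pericytes, smooth muscle and endothelium, was the most counted of the 10 genes, at 404, 398 and 395 CPM in Vector and 53.6, 61.02 and 51.05 CPM in the libraries labelled FTO. The Vector libraries lay within a narrow band, and the other 3 lay far under it. Mcam was 7.25-fold lower, with log2 fold change -2.86 ± 0.0577 (SE) and edgeR adjusted p-value 1.44e-15, and 1.41% of all genes tested had a lower value. The count ratio of Rgs5 to Cspg4 was 0.00330 to 0.00442 in Vector and 0.0181 to 0.0298 in the libraries labelled FTO (difference in log2 ratio 2.62, exact permutation p = 0.1, adjusted 0.125), and it rests on 4 to 15 counts of Rgs5.

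The receptors Notch1 and Notch3 fell to different extents. Notch3 was at 220, 235 and 225 CPM in Vector and at 12.6, 13.9 and 18.3 CPM in the libraries labelled FTO. FTO replicate 3 kept the most, still far under any Vector library. Notch3 was 14.99-fold lower, with log2 fold change -3.91 ± 0.0890 (SE) and edgeR adjusted p-value 5.99e-15, and 0.556% of all genes tested had a lower value. Notch1, the broadly expressed receptor, was at 27.7, 29.7 and 26.4 CPM in Vector and at 7.65, 7.63 and 8.32 CPM in the libraries labelled FTO. It was 3.54-fold lower, with log2 fold change -1.82 ± 0.0944 (SE) and edgeR adjusted p-value 1.40e-10. Per count of Notch1 there were 7.94, 7.89 and 8.52 counts of Notch3 in Vector and 1.64, 1.82 and 2.19 in the libraries labelled FTO, a difference of -2.12 in the log2 ratio (exact permutation p = 0.1, adjusted 0.125).

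The ligand Jag1 fell less than either receptor. Jag1 was at 203, 203 and 203 CPM in Vector and at 108, 86.9 and 108 CPM in the libraries labelled FTO, of which FTO replicate 2 was the lowest. The log2 fold change was -1.002 (SE 0.0669), a fall to 0.499 of the Vector level (0.452 to 0.551), with an adjusted p-value of 3.10e-09 in edgeR. This lies at the edge of the 2-fold threshold, and the value falls short of it with library size alone as the scaling (-0.994) and without FTO replicate 2 (-0.905). Per count of Notch1 there were 7.34, 6.84 and 7.68 counts of Jag1 in Vector and 14.1, 11.4 and 13 in the libraries labelled FTO, so that the ligand gained on the receptor by 0.81 on the log2 scale (exact permutation p = 0.1, adjusted 0.125).

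**Figure D2:**
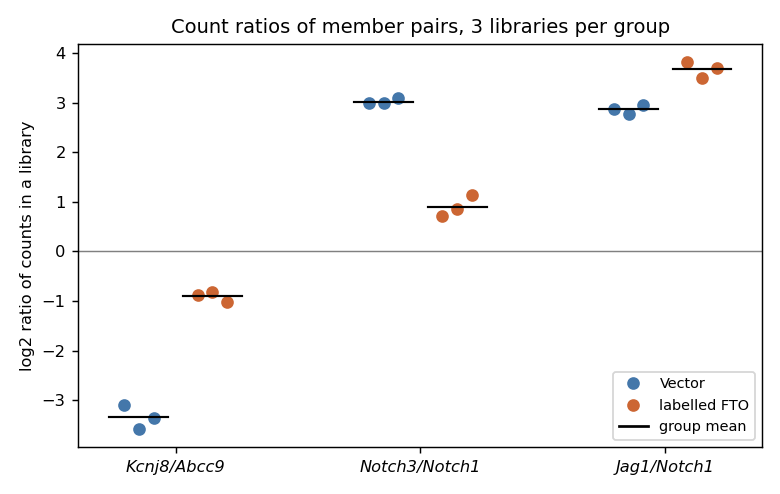
The log2 ratio of the raw counts (0.5 added to each) of 2 genes within each library, for Kcnj8 over Abcc9, Notch3 over Notch1 and Jag1 over Notch1, with points for the 3 libraries of each group and bars for group means. The ratio rose by 2.44, fell by 2.12 and rose by 0.81, with no overlap between the groups in each.

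Of the target genes among the 10, Hes1 changed least of the 8 genes tested, and Hey1 was hardly detected. Hes1, a transcriptional repressor switched on by Notch and by other signals, was at 48.3, 37.9 and 44.0 CPM in Vector and at 28.27, 27.26 and 27.25 CPM in the libraries labelled FTO. The Vector libraries were more spread than the others. The log2 fold change was -0.65 (SE 0.0835), a fall to 0.637 of the Vector level (0.563 to 0.721), with an adjusted p-value of 5.87e-06 in edgeR. Hey1, a related repressor, had 4, 0 and 2 counts in Vector and 1, 0 and 1 in the libraries labelled FTO. A difference of Hey1 was not detectable at this depth, and the ratio of Hes1 to Hey1 (difference 0.195, exact permutation p = 0.8) changed sign with the offset and with the libraries used.

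Further Notch target genes were taken from a wider list of 53 pathway genes, 42 of which were tested. Heyl, the Hey family member of smooth muscle and pericytes, was at 39.2, 33.9 and 38.0 CPM in Vector and 2.03, 1.28 and 1.96 CPM in the libraries labelled FTO. Heyl was 20.7-fold lower, with log2 fold change -4.37 ± 0.135 (SE) and edgeR adjusted p-value 2.34e-13. Hey2 was at 11.19, 12.01 and 11.43 CPM in Vector and 2.95, 3.47 and 2.46 CPM in FTO replicates 1, 2 and 3, and its log2 fold change was -1.98 ± 0.148 (SE; edgeR adjusted p-value 1.20e-08). Nrarp, a feedback inhibitor of the pathway, had 5 to 16 counts per library and was not called (log2 fold change -0.16, SE 0.427, adjusted p-value 0.755 in edgeR). Hes5 had 0 counts in every Vector library and 1, 0 and 5 in the libraries labelled FTO. Of the 4 target genes tested, 3 were lower and none was higher, beside 32.8% lower and 33.2% higher over all genes tested. The summed level over the 6 listed was 84.74 to 99.35 CPM in Vector and 32.47 to 34.3 CPM in the libraries labelled FTO.

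The 250 bases before the starts of Hes1, Hey2 and Heyl are shown because these are the 3 target genes that fell, from RefSeq's GRCr8 promoters on the strand of each gene. The stretches are at chr11:84213046-84213295 (- strand), chr1:28640850-28641099 (+ strand) and chr5:140793021-140793270 (+ strand). Capitals mark the Rbpj word GTGGGAA, searched on both strands in this exact form only.
Hes1: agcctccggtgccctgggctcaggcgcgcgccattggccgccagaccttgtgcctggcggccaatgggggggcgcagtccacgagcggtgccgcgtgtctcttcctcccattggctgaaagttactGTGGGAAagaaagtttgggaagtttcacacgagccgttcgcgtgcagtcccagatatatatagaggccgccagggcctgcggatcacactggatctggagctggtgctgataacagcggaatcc
Hey2: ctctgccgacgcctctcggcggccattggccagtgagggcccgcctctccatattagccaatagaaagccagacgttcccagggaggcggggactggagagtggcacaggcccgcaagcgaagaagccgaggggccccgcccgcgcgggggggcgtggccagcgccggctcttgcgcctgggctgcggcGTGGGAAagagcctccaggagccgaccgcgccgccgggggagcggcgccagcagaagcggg
Heyl: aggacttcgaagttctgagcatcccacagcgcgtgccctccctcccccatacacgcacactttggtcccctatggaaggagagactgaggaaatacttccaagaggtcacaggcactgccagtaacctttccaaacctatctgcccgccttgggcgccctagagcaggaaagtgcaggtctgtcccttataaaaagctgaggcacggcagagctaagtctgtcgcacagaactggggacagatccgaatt
In the window of 250 bases before to 50 bases after the start, the word begins 124 bases before the start of Hes1 and 61 bases before that of Hey2, and it occurs 2 times at Hes5. It was not found at Heyl or Nrarp. Of 33469 rat promoters of this length, 6.29% hold the word, as do 3 of the 5 target genes with a promoter in the table and 1 (Hes1) of the 8 of the 10 main genes with one. A match is a description of the letters and not a measured binding site.

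Over the other roles of the pathway the directions were mixed. The receptors Notch2 and Notch4 moved against Notch1 and Notch3. Notch2 was at 194, 199 and 200 CPM in Vector and 232, 226 and 252 CPM in the libraries labelled FTO (log2 fold change 0.26, SE 0.0472, adjusted p-value 1.81e-04 in edgeR). Notch4, known from endothelium, was at 2.41, 1.48 and 1.59 CPM in Vector and 7.09, 8.84 and 6.81 CPM in the libraries labelled FTO (log2 fold change 2.05, SE 0.203, adjusted p-value 3.54e-07). The 4 receptors together summed to 443.9 to 464.5 CPM in Vector and 256.5 to 285.6 CPM in the libraries labelled FTO. Of the other ligands, Jag2 rose from 1.95 ± 0.291 to 4.29 ± 0.0602 CPM (log2 fold change 1.13, SE 0.193, adjusted p-value 1.04e-04). Dll1, not tested, had 0, 2 and 2 counts in Vector and 19, 15 and 12 in the libraries labelled FTO, at least 4.99-fold higher than the Vector floor of 3 counts per library. Dll4, also not tested, had 0, 1 and 0 counts in Vector and 4, 6 and 2 in the libraries labelled FTO. Dll3 had 2, 1 and 0 counts in Vector and 0, 0 and 0 in the libraries labelled FTO. Without the filter on low counts, Dll1 and Dll4 were higher in edgeR (adjusted p-values 4.1e-05 and 0.0316), from few counts.

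All 6 called genes of receptor cleavage, out of 8 tested, rose and none fell, with a median log2 fold change of 0.288 over the 8. Over all genes tested, 65.9% were called, 33.2% as higher and 32.8% as lower. Adam17, a protease that sheds many surface proteins besides Notch, rose from 114 ± 5.25 to 239 ± 3.45 CPM (log2 fold change 1.06, SE 0.0456, adjusted p-value 1.34e-11 in edgeR), and the log2 fold changes of Adam10 and the γ-secretase genes Psen2, Ncstn and Psenen lay between 0.23 and 0.49. In the nucleus, Rbpj rose from 155 ± 3.62 to 313 ± 19.6 CPM (log2 fold change 1.01, SE 0.0495, adjusted p-value 6.70e-11), and 5 of the 7 genes tested of the nuclear complex and its corepressors fell. Lfng, which adds sugar to Notch receptors, fell by 0.84 on the log2 scale, and Numb, an endocytic inhibitor of Notch, by 0.88. The modulators Dner (4.05), Dtx3l (2.62) and Dtx4 (1.14) rose. Dner, a membrane protein described as a Notch ligand outside the classical family, went from 1.46, 2.15 and 2.36 CPM to 29.3, 40.3 and 30.3 CPM (adjusted p-value 1.46e-11 in edgeR). Dtx3l, a ubiquitin ligase also induced by interferon, went from 5.69 ± 0.450 to 34.8 ± 6.06 CPM.

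**Figure D3:**
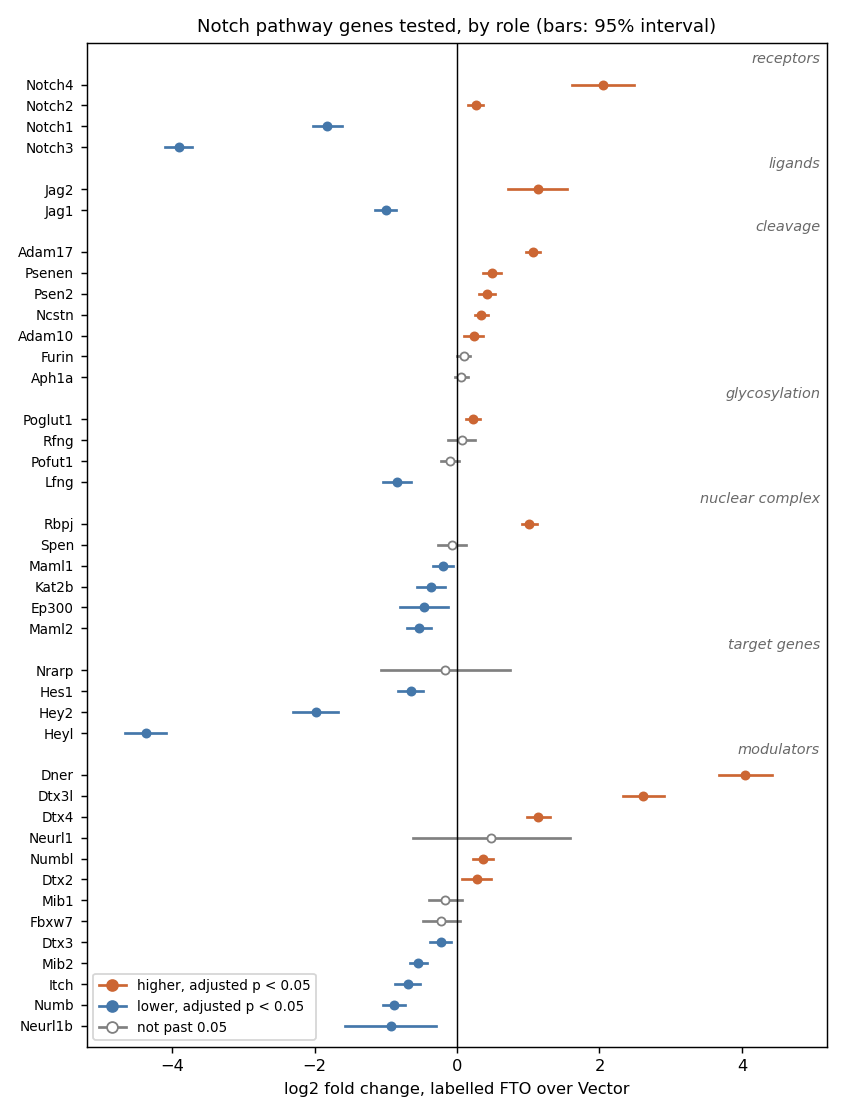
Log2 fold changes (labelled FTO over Vector) of 40 of the 42 Notch pathway genes tested, grouped by role, with 95% confidence intervals. Orange points are called higher, blue points called lower and open points not called. Notch1, Notch3, Jag1, Hes1, Hey2 and Heyl lie left of 0, while Notch2, Notch4, Jag2, Rbpj and the called cleavage genes lie right of it.

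Over the 42 genes tested, 16 were higher, 17 were lower and 9 were not called, so that 33 were called, with a median log2 fold change of -0.09. These counts stand beside 33.2% higher, 32.8% lower and a median of 0.00 over all genes tested, so the direction of the 4 Notch genes above was not that of the list. At least 2-fold changes were 7 higher and 5 lower of the 42, beside 10.4% higher and 9.27% lower over all genes tested (unadjusted p-value under 0.05 in edgeR).

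A wider list of 24 pericyte and mural markers, the 5 above included, was also split. Of 18 tested, 8 were higher, 7 lower and 3 not called, with a median of -0.00. Over all genes tested, 33.2% were higher and 32.8% lower, with a median of 0.00, so the directions were as balanced as over all genes. The sizes of the changes were not like those of all genes. At least 2-fold changes were 8 higher and 5 lower of the 18, beside 10.4% higher and 9.27% lower over all genes tested (unadjusted p-value under 0.05 in edgeR). Steap4, a metalloreductase also known as an inflammation-responsive gene, rose most, from 0.805, 1.07 and 0.831 CPM to 310, 307 and 327 CPM (log2 fold change 8.43, SE 0.0882, adjusted p-value 1.52e-18 in edgeR). Cox4i2, a respiratory chain subunit of pericytes and lung, rose from 6.37 ± 0.785 to 31.7 ± 1.56 CPM (log2 fold change 2.31, SE 0.102, adjusted p-value 1.99e-11). Tbx18, a transcription factor of pericytes and epicardium, rose from 23.7 ± 2.52 to 70.6 ± 4.40 CPM (log2 fold change 1.58, SE 0.0786, adjusted p-value 8.68e-11). The falls beyond those of Mcam and Cspg4 were led by Heyl and by both subunits of the nitric oxide receptor guanylate cyclase. Gucy1a1, listed under its older symbol Gucy1a3, went from 38.6, 38.6 and 39.5 CPM to 7.65, 6.19 and 7.32 CPM (log2 fold change -2.46, SE 0.0905, adjusted p-value 2.16e-12). Gucy1b1, listed as Gucy1b3, went from 74.0, 70.1 and 76.2 CPM to 16.0, 13.7 and 19.6 CPM (log2 fold change -2.14, SE 0.0938, adjusted p-value 1.78e-11).

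The 5 markers that were not tested (Rgs5, Cd248, Vtn, Lamc3 and Ggt1) stayed under 1 CPM in every library, with Vtn at 1 count in all and Cd248 listed at 0. Ndufa4l2, a mitochondrial protein gene also induced by hypoxia, rose from 0.878, 0.537 and 0.277 CPM to 11.4, 9.82 and 11.8 CPM (log2 fold change 4.29, SE 0.240, edgeR adjusted p-value 3.52e-10). Higd1b had 1, 2 and 2 counts in Vector and 13, 11 and 22 in the libraries labelled FTO, at least 4.73-fold higher than the Vector floor of 3 counts per library (edgeR adjusted p-value 9.73e-05). Pdgfrb, the receptor that pericytes share with fibroblasts, was at 888.3 ± 19.99 CPM in Vector and 633 ± 33.3 CPM in the libraries labelled FTO (log2 fold change -0.49, SE 0.0438, adjusted p-value 1.08e-07 in edgeR). The pericyte markers thus ranged in the libraries labelled FTO from 0 (Cd248, Vtn) to 633 CPM on average (Pdgfrb), and whether any pericytes were present was not tested.

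**Figure D4:**
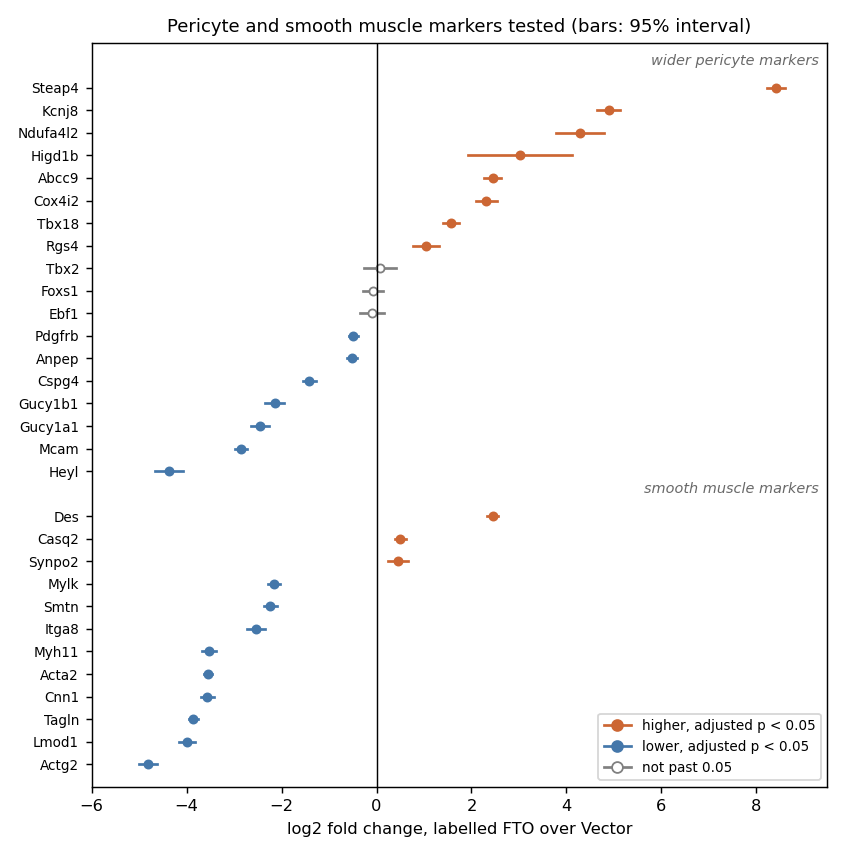
Log2 fold changes (labelled FTO over Vector) with 95% confidence intervals of the 18 wider pericyte markers and the 12 smooth muscle markers tested. Orange points are called higher, blue points called lower and open points not called. Pericyte markers lie on both sides of 0, from Heyl (-4.37) to Steap4 (8.43), while 9 of the 12 smooth muscle markers lie left of 0.

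Of the other cell types that such a culture can hold, smooth muscle and macrophage markers were mostly lower and cardiomyocyte markers mostly higher in the libraries labelled FTO, while endothelial markers were split and most Schwann cell markers tested were not called. Of 12 smooth muscle markers, 9 were lower and 3 higher (Des, Casq2 and Synpo2), and their summed level was 10740 to 10980 CPM in Vector and 1558 to 1599 CPM in the libraries labelled FTO. Acta2 (log2 fold change -3.56, SE 0.0401) and Tagln (-3.86, SE 0.0448), the most abundant of them, fell by about as much as Notch3. The paper uses α-smooth muscle actin, the protein of Acta2, as a fibrotic marker in cardiac fibroblasts. A fall of Acta2 is therefore not particular to smooth muscle cells, and which cells carried these markers was not tested. Of 8 macrophage markers, 7 were lower, and the sum was 400 to 421 CPM in Vector and 100 to 118 CPM in the libraries labelled FTO. Cd68 changed by -1.13 (SE 0.0717) and Csf1r by -3.96 (SE 0.0773). Of 13 endothelial markers, 5 were higher and 3 lower among 9 tested, with sums of 132 to 138 CPM and 126 to 129 CPM. Flt1 (-0.57, SE 0.0554) and Tek (1.16, SE 0.0846) were the most abundant, and Cldn5 was listed at 0 in every library. Of 7 cardiomyocyte markers, 6 were higher, with sums of 1457 to 1487 CPM and 2175 to 2213 CPM. Tnnt2 changed by -0.25 (SE 0.0393) and Nppa by 1.28 (SE 0.0531). Schwann cell markers summed to 33.7 to 37.5 CPM and 30.59 to 32.62 CPM, and 2 of the 5 tested were lower. These 2 were S100b (-2.17, SE 0.293) and Sox10 (-1.60, SE 0.443), with at most 59 and 31 counts in any library. Mbp, the highest of the Schwann cell markers, was at 22.7 ± 1.62 CPM in Vector against 22.2 ± 1.38 CPM in the libraries labelled FTO. For all these lists, the shares over all genes tested were 33.2% higher and 32.8% lower. The part of any of these cells in the changes of Mcam, Cspg4, Kcnj8, Abcc9 and the Notch genes was not tested.

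**Figure D5:**
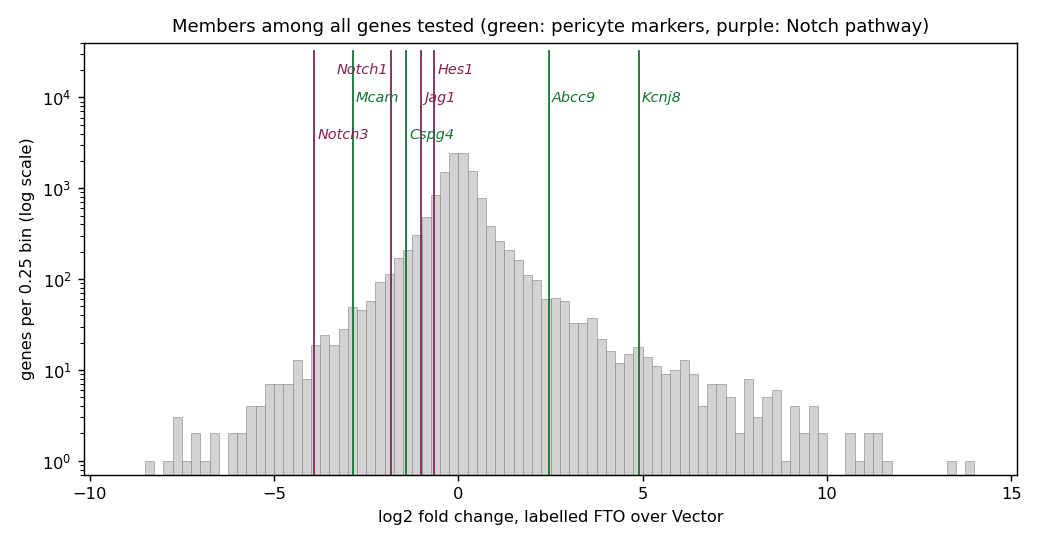
Number of genes (log axis) per bin of log2 fold change (labelled FTO over Vector) over all 12941 genes tested, with vertical lines at the 4 pericyte markers (green) and the 4 Notch genes (purple) tested. Notch3 and Mcam lie far into the lower tail and Kcnj8 into the upper tail, with 0.556% and 1.41% of genes lower than the first 2 and 1.11% higher than Kcnj8, while 15% of genes lie lower than Hes1.

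Genes with a like pattern were sought for the most counted gene of each kind, over the 6 libraries, by the Euclidean distance of log2(CPM + 0.5) centred on the mean of each gene, among 10034 genes with a mean of at least 100 counts. The nearest to Mcam were Afap1l2 (distance 0.134, log2 fold change -2.94), Col5a3 (0.168, -2.80) and Dock10 (0.202, -3.02). The nearest to Jag1 were Timp3 (0.114, -1.01), Rps6ka2 (0.115, -1.06) and Sft2d2 (0.115, -1.06). With 2 groups of 3 libraries, a small distance here means chiefly a group difference of like size.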

How the data were processed

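RNA-seq of NRCFs gave 6 libraries, grouped by the genotype label, with replicate numbers from the titles. The files, as the authors deposited them, hold raw counts by gene symbol, with 1 file for each library. The submitters' processing notes name Trimmomatic and the rn6 build. The aligner, counting program, annotation and use of strand are not given in the sources used here, so genes overlapping on opposite strands could share reads. Promoter sequences were matched by symbol to RefSeq's GRCr8 tables (8 of the 10 genes) and carry that build.

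Genes were kept with filterByExpr of edgeR 4.0.16 at a minimum count of 10 (12941 genes, 99.9% of the counts), scaled by TMM (factors 0.995 to 1.005) and compared by the quasi-likelihood test (glmQLFit, glmQLFTest) in R 4.3.3, two-sided, without covariates, with Benjamini-Hochberg adjustment over all genes tested. A gene was called at an adjusted p-value under 0.05. SE was the log2 fold change divided by the square root of F. Count ratios had 0.5 added to each count and were compared by exact permutation. Depth limits genes near 3 counts, and intervals cover counting error and replicate spread only, without molecular identifiers. The procedure was tested on simulated counts.

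The genes and lists were chosen with earlier results of these data known, and no list was tested as a set. Named genes were the 10, all listed receptors, ligands and targets, the largest called changes (no overlap, mean of at least 100 counts; 5 per direction for Notch, 3 for pericyte markers) and the 2 most abundant of each other marker list. Others, such as Pdgfrb, Higd1b, Ndufa4l2, Adam10, S100b, Sox10 and the fibroblast markers other than Col1a1 and Col3a1, were named after their values were seen. Aph1b, Maml3, Foxf2, Foxd3 and Ttn are not analysed here, and 3 listed genes are counted in their lists but not reported here by name. Alternatives were DESeq2 1.42.0, limma-voom (limma 3.58.1), other scalings and filters, the replicate number as a block, and leaving out each library.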

Additional observations from a re-analysis of the deposited data

How the results depend on the processing

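The 8 tested genes kept their direction and stayed past the adjusted threshold under all 13 alternatives. Their log2 fold changes ranged from 4.76 to 5.01 (Kcnj8), 2.34 to 2.52 (Abcc9), -1.45 to -1.39 (Cspg4), -2.93 to -2.80 (Mcam), -1.87 to -1.78 (Notch1), -4.10 to -3.80 (Notch3), -1.06 to -0.905 (Jag1) and -0.744 to -0.572 (Hes1). Among 41 genes followed, 533 comparisons gave 529 with the same call and 4 changes of sign, all in genes not called. With single libraries left out, Nrarp ran from -0.494 to 0.124 (above 0 without Vector replicate 3 or FTO replicate 2) and Mbp from -0.0948 to 0.00529 (above 0 without Vector replicate 2 or FTO replicate 1), and the cause was not tested.

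The log2 ratio of Hes1 to Hey1 changed sign with a count offset of 2 (-0.105), and ran from -0.428 to 1.05 when single libraries were left out, as Hey1 had at most 4 counts. The medians of whole lists moved with single libraries, from -0.142 to 0.0291 for the Notch list, -3.12 to -2.93 for smooth muscle, 0.507 to 1.08 for endothelial and -0.525 to -0.392 for fibroblast markers. The Notch median was 0.0291 without Vector replicate 3 and 0.0243 without FTO replicate 2, and the wider pericyte median ran from -0.0194 to 0.125, so neither has a stable sign. Rgs5 passed the threshold without a filter, and also without Vector replicate 1 or FTO replicate 2. The endothelial median was 0.507 without Vector replicate 2 and 0.628 without Vector replicate 1, against 0.949 with all libraries. Without a filter the Schwann median was -0.482. The causes were not tested.

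Same-numbered libraries did not deviate together (correlations 0.00352, -0.0789 and 0.0346). With the replicate number as a block, 2 of the 10 genes were higher and 6 lower, as without it, and 8399 genes passed over the whole table in place of 8531. A count offset of 0 could not be used for Hes1 over Hey1, where Hey1 was at 0. Depth limits Rgs5, Hey1, Hes5, the Dll genes and Higd1b.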
